A study of Mus musculus with 76 samples.

Results

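Among the RNAs that a mouse oocyte stores, a set of 185 genes, of 48321 in the tables, was followed. By the 2-cell stage (2C) in wild-type (WT) embryos, the level of each was low relative to its oocyte level. The members were selected on measured values. Counts were scaled to CPM, the counts per 1000000 counts of a library. The 2373 genes whose WT oocyte mean reached 100 CPM were ranked by the oocyte mean divided by the 2C mean plus 1 CPM. The 200 ranked highest were kept, and 15 of them were left out by symbol (genes of the families Nlrp, Zp, Ccnb, Obox, Hist, Rpl, Rps and Nduf, and 7 single genes, among them Ezhip itself, listed in the tables as AU022751).

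The study asked what maternal loss of Ezhip does to early development. The Ezhip protein restrains PRC2, the Polycomb enzyme that writes the repressive mark H3K27me3. Polyadenylated RNA of single Ezhip matKO and WT oocytes (n = 4 and 3), 2C embryos (n = 12 and 11), blastocysts (n = 14 each) and pieces of extraembryonic ectoderm (ExE, trophoblast tissue) at embryonic day 6.5 (n = 8 and 10) was sequenced. MatKO stands for maternal knockout. Each group after the oocyte held both sexes. The allele, strain and paternal genotype are not stated in the sources used, and nothing says which embryos share a mother. AU022751 had 0.113 to 0.590 CPM in matKO oocytes and 943 to 1463 CPM in WT oocytes, and 0 to 19.1 CPM in matKO 2C embryos against 31.3 to 347 CPM in WT 2C embryos, as the labels say. Total counts ran from 1.48 to 10.97 megacounts in matKO 2C libraries and from 1.05 to 14.1 megacounts in WT 2C libraries, and from 5.27 to 26.5 megacounts in matKO oocytes against 11.5 to 13.1 megacounts in WT oocytes.

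A growing oocyte transcribes and stores RNA, then falls silent, and maturation, fertilisation and the first cleavage run on the stored pool. Much of that pool is removed in steps, first with factors the oocyte itself supplies, which shorten poly(A) tails, and then with products of the embryo's own genome, which is activated at the 2-cell stage in the mouse. Since only polyadenylated RNA was sequenced, loss of an RNA and shortening of its poly(A) tail cannot be told apart in these data. CPM is a share of the library, so a lower value can also follow from a rise of other RNAs.

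The 2 genes ranked highest had oocyte levels far above 100 CPM and 2C medians of a few CPM or less. Gm813 had 1159, 1043, 964 and 616 CPM in the matKO oocytes and 1239, 1440 and 1462 CPM in the WT oocytes. At 2C its lowest, median and highest values were 0, 2.31 and 7.07 CPM in matKO and 0, 0.841 and 2.97 CPM in WT. Its neighbour on chromosome 16, E330017A01Rik, had 1490, 1196, 704 and 1096 CPM in matKO oocytes and 1474, 2516 and 2326 CPM in WT oocytes, with 4.32, 6.79 and 16.3 CPM at 2C in matKO and 0, 2.57 and 14.3 CPM in WT. RefSeq names this pair Ftdc1 and Ftdc2. The 2C and oocyte libraries did not overlap for either gene in either genotype. To show what lies upstream of such genes, the 250 bases before the annotated start are printed from the RefSeq table (build GRCm38.p6). Gm813 (chr16:58616979-58617228, minus strand) and E330017A01Rik (chr16:58638404-58638653, minus strand) are the 2 highest ranked members without a TATAAA in the window. Gpr1 (chr1:63214282-63214531, minus strand) and Gm11985 (chr11:7188570-7188819, minus strand) are the 2 highest ranked with one, on the opposite strand and far from the start in both. Capitals mark TATAAA or its reverse complement TTTATA, and CAGCTG, which reads the same on both strands.
Gm813: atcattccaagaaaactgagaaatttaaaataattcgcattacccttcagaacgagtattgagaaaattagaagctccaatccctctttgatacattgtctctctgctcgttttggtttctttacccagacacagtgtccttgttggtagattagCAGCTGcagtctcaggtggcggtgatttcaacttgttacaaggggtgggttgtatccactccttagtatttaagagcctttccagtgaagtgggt
E330017A01Rik: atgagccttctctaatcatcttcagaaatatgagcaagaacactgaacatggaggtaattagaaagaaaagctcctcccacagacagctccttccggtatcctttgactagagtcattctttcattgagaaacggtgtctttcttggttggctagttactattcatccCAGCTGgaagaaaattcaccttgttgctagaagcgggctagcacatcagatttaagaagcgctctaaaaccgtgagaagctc
Gpr1: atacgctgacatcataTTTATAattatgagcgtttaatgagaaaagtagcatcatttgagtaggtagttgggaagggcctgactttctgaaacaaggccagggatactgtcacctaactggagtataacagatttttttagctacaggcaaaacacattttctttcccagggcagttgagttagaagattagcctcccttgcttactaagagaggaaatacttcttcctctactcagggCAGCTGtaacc
Gm11985: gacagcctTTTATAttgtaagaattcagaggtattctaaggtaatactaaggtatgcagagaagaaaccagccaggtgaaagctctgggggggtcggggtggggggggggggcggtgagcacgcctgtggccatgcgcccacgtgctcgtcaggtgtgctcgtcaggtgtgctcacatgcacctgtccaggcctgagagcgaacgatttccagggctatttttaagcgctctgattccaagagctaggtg

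Of the 185 members, 151 had a window of 300 bases in that table, reaching from 250 bases before the start to 50 after it. CAGCTG stood in 31.8% of the members' windows, against 15.3% of the windows of 1772 other genes with at least 100 CPM in WT oocytes and 16.1% of all 27025 windows. CANNTG, the wider motif that includes CAGCTG, stood in 77.5%, 61.3% and 72.2% of these 3 sets. GGGCGG, searched on both strands, stood in 36.4% of the members' windows, 67.1% of those of the other oocyte genes and 35.9% of all. TATAAA on either strand stood in 10.6%, 6.49% and 14.2%, and on the coding strand between 40 and 15 bases before the start in 3.31%, 0.903% and 2.22%. The median GC content of the windows was 54.7% for the members, 61.7% for the other oocyte genes and 52.7% for all. These shares describe the letters in the windows, and the part of base composition in them was not tested.

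The members' transcripts also had short 3′ ends. Among the 167 members with a coding transcript and a 3′ UTR in GENCODE M21, the median 3′ UTR had 366 bases (quartiles 191 and 935), against 874 bases (quartiles 329 and 1832) for 2123 other genes with at least 100 CPM in WT oocytes. The cytoplasmic polyadenylation element, TTTTAT or TTTTAAT, through which CPEB proteins lengthen or silence stored RNAs, stood in the last 100 bases of 15.6% of the members and 21.1% of the other genes. AATAAA or ATTAAA, the signal for cleavage and polyadenylation, stood in the last 40 bases of 73.1% of the members and 76.5% of the others. Both elements lay within 30 bases in 9 members. Of these, 4 that are described elsewhere in the text are printed on the coding strand of GRCm38 (Gdf9 on chromosome 11, Txnip on 3, Bub1b on 2, Bpgm on 6), with both elements in capitals.
Gdf9: TTTTATgtgacggaagAATAAActgttgat
Txnip: TTTTAATgacaaaAATAAAtgttcttttct
Bub1b: TTTTATAATAAAatagtttttgttaca
Bpgm: TTTTATAATAAAacgggcctttggtggaaa

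The other genes among the first 10 named were of several kinds. Glrx, a glutathione-dependent oxidoreductase, had 357, 299, 268 and 467 CPM in matKO oocytes and 376, 454 and 387 CPM in WT oocytes, against 2C medians of 2.72 CPM in matKO (range 0 to 14.8) and 1.98 CPM in WT (range 0 to 6.703). Gja4, the connexin of the junctions between oocyte and granulosa cells, had 969.7, 814, 666 and 1363 CPM in matKO oocytes and 1061, 894 and 999.5 CPM in WT oocytes. Its 2C values ran from 0.119 to 59.4 CPM around a median of 9.06 in matKO, and from 0 to 19.5 CPM around 7.01 in WT. Every 2C embryo of either genotype thus lay far below the lowest oocyte. Gpr1, a receptor for chemerin, had 393, 433, 372 and 342 CPM in matKO oocytes and 332, 450.2 and 410.2 CPM in WT oocytes, and 2C medians of 10.6 CPM in matKO (0.475 to 36.9) and 2.801 CPM in WT (0 to 11.4). Ninj2, a membrane protein, had 739, 755, 526 and 623 CPM in matKO oocytes and 699.9, 735 and 688 CPM in WT oocytes, with 2C medians of 8.11 CPM in matKO and 7.04 CPM in WT. Zar1, a protein that binds stored RNAs and whose loss arrests early embryos, had 2188, 1704, 1021 and 4586 CPM in matKO oocytes and 3984, 1818 and 1862 CPM in WT oocytes. At 2C Zar1 had 10.6, 46.1 and 86.4 CPM (lowest, median, highest) in matKO and 11.7, 31.8 and 70.4 CPM in WT. Speer5-ps1, a pseudogene, the serine protease gene Prss12 and Cage1 completed the 10, with oocyte means of 372, 103 and 310.4 CPM in matKO and 433, 128 and 305 CPM in WT. Their 2C means were 9.69, 1.12 and 3.62 CPM in matKO and 3.77, 0.462 and 2.76 CPM in WT. At the other end, Nkd1, Zfp616 and Cd177 were the last inside the 200, with ratios of 11.66, 11.64 and 11.60, and 0610009B22Rik, Usp30 and Fbxw14 were the first named outside, with 11.58, 11.56 and 11.46. No gap in the ratio separates members from the genes just below them.

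As a group, the members held 8.75% to 11.9% of all counts in matKO oocytes and 11.2% to 11.8% in WT oocytes. At 2C they held 0.336% to 1.09% in matKO embryos and 0.255% to 0.606% in WT embryos. In blastocysts the share was 0.149% to 0.264% in matKO and 0.222% to 0.379% in WT, and in ExE 0.198% to 0.513% in matKO and 0.305% to 0.468% in WT. Per gene, the 2C mean was a median 6.20% of the oocyte mean in matKO (quartiles 3.83% and 9.36%, highest 35%) and 4.75% in WT (quartiles 2.74% and 6.06%, highest 8.38%). The WT values chose the members and are a description. For the other 2188 genes with at least 100 CPM in WT oocytes these medians were 67.4% in matKO and 67.1% in WT.

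**Figure D1:**
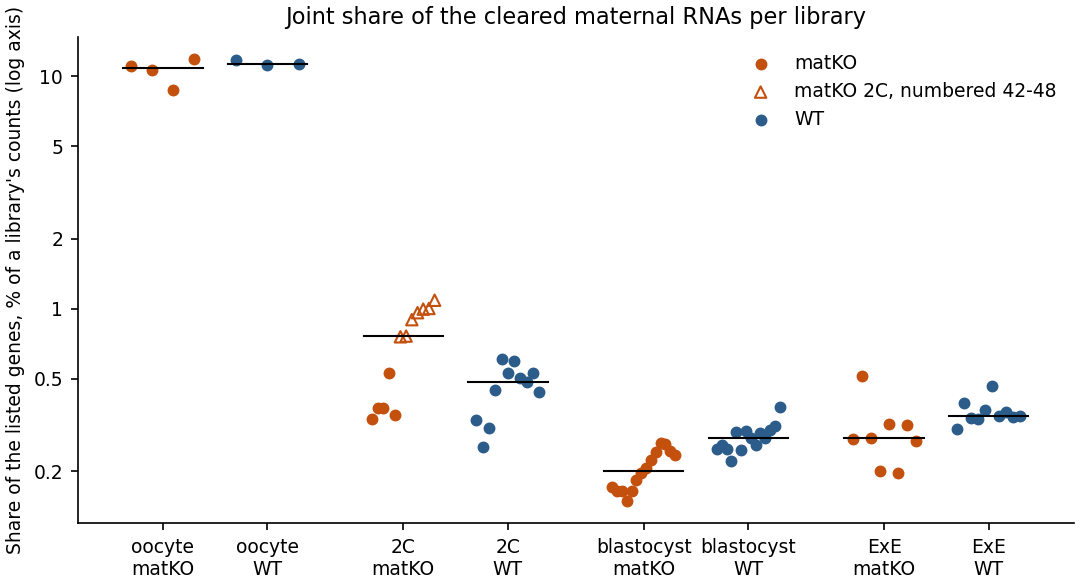
Joint share of the 185 genes in each library, in percent of the library's counts on a log axis, by stage and genotype. Each point is a library, each bar a group median, and open triangles are the 7 matKO 2C embryos with identifier numbers 42 to 48. These 7 lie between 0.759% and 1.09%, above the other 5 matKO 2C embryos (0.336% to 0.532%) and above every WT 2C embryo (0.255% to 0.606%).

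Whether the same RNAs go down when the mother lacks Ezhip was tested within matKO libraries, which the ranking did not use. All 185 members were lower in matKO 2C embryos than in matKO oocytes by edgeR's quasi-likelihood test with Benjamini-Hochberg adjustment, at an adjusted p under 0.05, where 26.5% of the 14864 genes tested were called lower. The median log2 change of the members was -4.14, against -0.06 over all genes, and 185 were called lower with each library left out in turn. The change ran from -8.56 for Gm813 (SE 0.70, edgeR adjusted p 1.1e-08) to -1.73 for Zc3h6 (SE 0.54, edgeR adjusted p 0.011). For 183 members every matKO 2C embryo lay below every matKO oocyte, which held for 18.1% of all genes tested. The exceptions were Zc3h6 and Sfrp4, a secreted Wnt antagonist that granulosa cells also make, with 51.01, 59.5, 55.1 and 2.83 CPM in the matKO oocytes and 0 to 3.83 CPM at 2C. The summed level of 17 cumulus and granulosa cell markers ran from 688 to 3086 CPM in matKO oocytes and from 1135 to 2798 CPM in WT oocytes, and from 204 to 401 CPM in matKO 2C embryos and 292 to 2031 CPM in WT 2C embryos. The part of these cells in the level of Sfrp4 was not tested.

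The members with the smallest p in this contrast, after E330017A01Rik, were well expressed in oocytes. Cpsf4l, a paralogue of a cleavage and polyadenylation factor subunit, had 1869, 1897, 1578 and 2647 CPM in matKO oocytes and 15.1 to 53.6 CPM in matKO 2C embryos (log2 change -6.00, SE 0.29, edgeR adjusted p 2.3e-11). Lamb1, the laminin beta 1 chain, had 2015, 1812, 1670 and 1159 CPM in matKO oocytes and 36.6 to 102 CPM at 2C (log2 change -4.80, SE 0.24). Txnip, the thioredoxin-interacting protein, had 1152, 1377, 1371 and 958 CPM in matKO oocytes and 15.7 to 86.2 CPM at 2C (log2 change -5.07, SE 0.28). None of these 3 overlapped between the stages. Ooep, a core protein of the subcortical maternal complex, had 3296, 2171, 1663 and 2272 CPM in matKO oocytes and 13.5 to 69.1 CPM at 2C (log2 change -5.81, SE 0.32, edgeR adjusted p 1.1e-10). RP23-299N4.1 and Gdpd1, a lysophospholipase D, had log2 changes of -4.47 (SE 0.23) and -4.13 (SE 0.23).

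Applying the ranking to matKO libraries instead gave 189 genes, of which 127 were members. That is 68.6% of the WT-based list and 67.2% of the matKO-based one. Of the 58 members found only in the WT-based list, 18 had a matKO oocyte mean under 100 CPM and so could not be ranked. The lowest ratio that entered the first 200 was 10.4 in matKO, against 11.6 in WT. The 2C mean of the matKO-based list was a median 5.62% of the oocyte mean in matKO and 5.23% in WT. For the WT-based list these medians were 6.20% in matKO and 4.75% in WT. The median level left was thus higher in matKO in both lists, by less in the list chosen on matKO libraries. Choosing on WT libraries by itself leans a list toward more left in matKO, and choosing on matKO libraries leans it the other way. For the WT-based list the matKO median was 8.11% in embryos numbered 42 to 48 and 3.11% in those numbered 37 to 41.

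**Figure D2:**
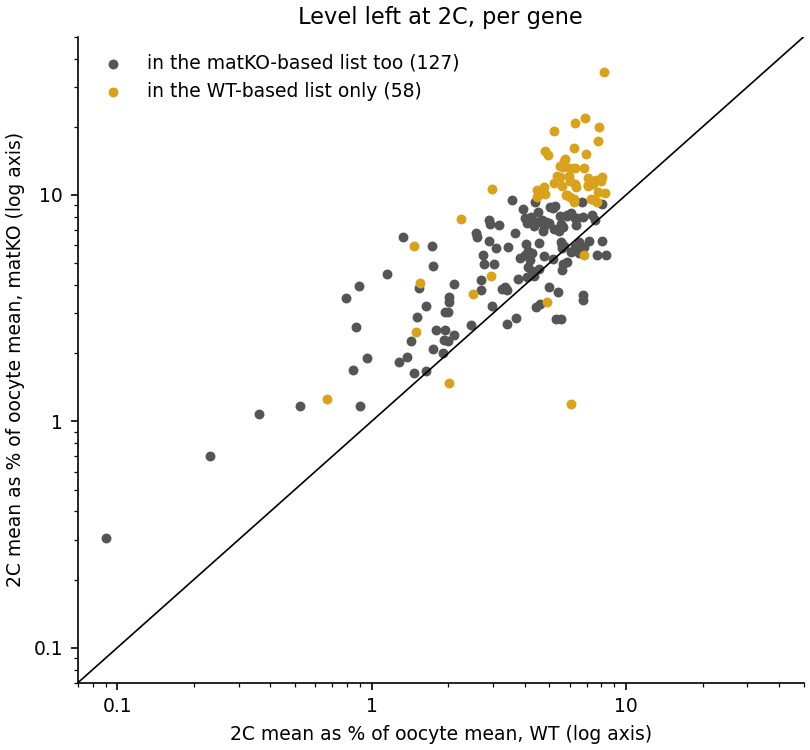
Level left at 2C as a percentage of the oocyte mean, for each of the 185 genes, in matKO (vertical) against WT (horizontal), both log axes; the line marks equal values. Grey points are the 127 genes that the ranking also finds in matKO libraries, gold points the 58 it does not. Of the 185 genes, 159 lie above the line and 26 below, and WT values reach at most 8.38%, since they chose the genes.

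By role, the members included stored factors that handle other RNAs, while a wider list of such factors moved in both directions. Of 60 listed genes of RNA storage and decay, 56 were tested between matKO stages, 18 were lower and 16 higher at 2C (median log2 change -0.20, all genes -0.06), and the members among them (Zar1, Cpeb1, Pabpn1l, Patl2 and Pabpc1l) were lower. Cpeb1, which binds the cytoplasmic polyadenylation element, averaged 492 ± 56.2 CPM in matKO oocytes and 418 ± 103 CPM in WT oocytes (SD, n = 4 and 3), and 28.9 ± 15.99 CPM at 2C in matKO and 26.4 ± 13.7 CPM in WT (SD, n = 12 and 11). Pabpn1l, an oocyte poly(A)-binding protein that takes part in maternal RNA decay, averaged 337 ± 35.9 CPM in matKO oocytes and 365 ± 70.4 CPM in WT oocytes, and 8.13 ± 8.24 CPM in matKO 2C embryos and 7.69 ± 5.16 CPM in WT 2C embryos. Patl2, a translational repressor of the oocyte, averaged 99.3 ± 28.3 CPM in matKO oocytes and 147 ± 46.4 CPM in WT oocytes, and 1.46 ± 1.36 CPM at 2C in matKO and 2.94 ± 2.31 CPM in WT. The genotypes overlapped at both stages for these 3 genes.

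Growth factors of the oocyte were among the most abundant members. Gdf9 had 7081, 6495, 2732 and 10142 CPM in matKO oocytes and 8382, 6538 and 7699 CPM in WT oocytes, the highest mean of all members in both. Bmp15, its partner in signalling to granulosa cells, had 3008, 3484, 1948 and 1595 CPM in matKO oocytes and 3023, 4449 and 4943 CPM in WT oocytes. At 2C Bmp15 had 32.04 to 538 CPM around a median of 212 in matKO, against 32.5 to 221 CPM around 176 in WT. The genotypes overlapped for both genes. Plat, the tissue plasminogen activator, averaged 1949 ± 383 CPM in matKO oocytes and 1890 ± 404 CPM in WT oocytes, and 44.3 ± 26.2 CPM at 2C in matKO and 27.1 ± 10.2 CPM in WT. Of 33 listed genes of oocyte growth factors, receptors and surface proteins, 29 were tested between matKO stages, 19 were lower and 3 higher at 2C.

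Chromatin and maternal complex genes among the members fell as well. H1foo, the linker histone of the oocyte, averaged 4933 ± 1480 CPM in matKO oocytes and 3870 ± 818 CPM in WT oocytes, and 125 ± 64.6 CPM at 2C in matKO and 69.6 ± 32.7 CPM in WT. Npm2, the nucleoplasmin of the oocyte, averaged 1075 ± 701 CPM in matKO oocytes and 1178 ± 702 CPM in WT oocytes, and 117 ± 38.5 CPM at 2C in matKO and 83.95 ± 32.3 CPM in WT. Nobox, a homeobox regulator of oocyte genes, averaged 429 ± 227 CPM in matKO oocytes and 524 ± 284 CPM in WT oocytes, and 12.99 ± 12.8 CPM at 2C in matKO and 10.2 ± 8.78 CPM in WT. Of 36 listed oocyte regulators of transcription and chromatin, 32 were tested between matKO stages, with 17 lower and 5 higher. Tle6, of the subcortical maternal complex, kept 245 ± 59.5 CPM at 2C in matKO and 179 ± 66.1 CPM in WT, after oocyte means of 2936 CPM in matKO and 2949 CPM in WT. Padi6, which is needed for the lattices of the oocyte cytoplasm, kept 179 ± 44.3 CPM at 2C in matKO and 128 ± 46.2 CPM in WT. In the list of 30 genes of this complex and of maternal effect, 28 were tested, with 11 lower and 2 higher at matKO 2C. Among 58 genes of meiotic and mitotic division, 53 were tested, with 15 lower and 17 higher. Bub1b, a spindle checkpoint kinase, had 1198, 1271, 1405 and 983 CPM in matKO oocytes, every one above the 903, 837 and 684 CPM of WT oocytes. Bub1b was not called between oocytes (log2 difference 0.56, SE 0.18, edgeR adjusted p 0.76), and its 2C means were 34.6 ± 15.6 CPM in matKO and 42.96 ± 17.97 CPM in WT. Ccno, cyclin O, averaged 1075 ± 419.6 CPM in matKO oocytes and 1230 ± 412 CPM in WT oocytes, and 63.2 ± 39.2 CPM at 2C in matKO and 42.2 ± 22.8 CPM in WT.

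Several members came from clusters of related genes. On chromosome 9, 12 F-box and WD40 genes, whose products resemble substrate receptors of SCF ubiquitin ligases, lay between 109139447 and 109790630 (mm10). Chromosome 9 held 10.8% of the members and 6.62% of all genes with at least 100 CPM in WT oocytes. Oocyte means in the cluster ran from 97.6 to 1303 CPM in matKO and from 124 to 1674 CPM in WT. The 2C mean was a median 8.22% of the oocyte mean in matKO (1.64% to 14.97%) and 4.63% in WT (1.47% to 7.11%), and no mean passed 1.01 CPM in blastocysts or 0.527 CPM in ExE of either genotype. Fbxw21 had 1404, 1409, 1215 and 1184 CPM in matKO oocytes and 1760, 1615 and 1646 CPM in WT oocytes, so the genotypes did not overlap, but the difference was not called (-0.38 on the log2 scale, SE 0.16, edgeR adjusted p 0.79). Fbxw15, Fbxw19 and Fbxw18 had 2C means of 99.7, 101 and 76.5 CPM in matKO and 58.7, 86.8 and 47.3 CPM in WT. Of 42 listed genes of ubiquitin ligases and protein turnover, 10 of these F-box members included, 40 were tested between matKO stages, with 19 lower and 9 higher at 2C. Another 6 members, Oog4 among them, are Prame-like genes of chromosome 4, with oocyte means of 124 to 1515 CPM in matKO and 196 to 1857 CPM in WT. Oas1c, Oas1e and Oas1h, relatives of the antiviral oligoadenylate synthetases, lie together on chromosome 5 and had oocyte means of 1083 to 1561 CPM in matKO and 1238 to 1915 CPM in WT. Because nothing states how multi-mapping reads were handled, the split of counts among such copies is uncertain.

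Which oocyte of a genotype had the highest level varied between members. Among matKO oocytes it was oocyte 1 for 54 of the 185 genes, oocyte 2 for 42, oocyte 3 for 22 and oocyte 4 for 67. Among WT oocytes it was oocyte 1 for 74, oocyte 2 for 67 and oocyte 3 for 44. The same count was not made over all genes, so it describes these libraries and is not a trait particular to the members. MatKO oocyte 4 and WT oocyte 1 were both the highest of their genotype for 50 of the 185 genes. Zar1, Padi6, Npm2, Nobox and Tle6 were among them: Padi6 had 1876, 1840, 764 and 4782 CPM in matKO oocytes and 3969, 1886 and 2356 CPM in WT oocytes. The median SD over members was 18.9% of the mean in matKO oocytes and 17.3% in WT oocytes, and 71.7% in matKO 2C embryos and 62.9% in WT 2C embryos. The lowest mean levels in WT oocytes belonged to Tspan3, Mb21d1 (the DNA sensor cGAS) and Cxx1a, with 80.8, 87.4 and 63.1 CPM in matKO oocytes and 101, 101 and 103 CPM in WT oocytes.

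None of the 185 members was called between matKO and WT oocytes, where the edgeR test called 0.0202% of the genes tested (3 of 14838, all lower in matKO). The members' median log2 difference was -0.13, against 0.02 over all genes, and 64 members were above 0 and 121 below. The median half-width of a member's unadjusted 95% interval was 0.42. It varies by gene and is not a limit of detection, and the lack of a call does not show equal levels. At an unadjusted p under 0.05, 20 members differed, 3 higher and 17 lower in matKO, and 929 of all genes did, 478 higher and 451 lower, which is 6.26%. DESeq2 called 0 members and 0.248% of all genes. The ranking required a WT oocyte mean of at least 100 CPM and favoured a high one, which by itself leans members toward lower in matKO. The other genes with at least 100 CPM in WT oocytes had a median of -0.03, and the matKO-based list had 0.01. At an unadjusted p under 0.05, 61 of those other genes were higher and 102 lower in matKO. In the matKO-based list 7 were higher and 9 lower.

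In 2C embryos most members had a somewhat higher estimate in matKO, but 1 of 183 tested was called, where 0.295% of 13563 genes were called higher and 0.347% lower. That member was Gdf9, with 304 to 809 CPM around a median of 497 in matKO and 178 to 435 CPM around 316 in WT (log2 difference 0.76, SE 0.18, edgeR adjusted p 0.038, higher than the WT mean in 10 of 12 matKO embryos). The genotypes overlapped, 7 matKO embryos lay above every WT embryo, and the call was lost on leaving out 14 of 23 single embryos in turn (range of the difference 0.66 to 0.82). The median log2 difference of the members was 0.60, against 0.02 over all genes, and 157 were above 0 and 26 below. This contrast shares the WT embryos with the ranking, which picked genes that were low in them relative to WT oocytes. The matKO-based list, chosen on the matKO embryos, had a median of 0.27, and the other genes with at least 100 CPM in WT oocytes had 0.08. DESeq2 called 17 members, all higher in matKO, where it called 3.05% of all genes higher.

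The excess followed 7 matKO embryos, those with identifier numbers 42 to 48 (5 male and 2 female). The break at 42 was chosen with earlier results of these data known, so these values are a description. Per member, the 2C mean was a median 21.6 CPM in numbers 42 to 48, 8.33 CPM in matKO numbers 37 to 41 (1 male and 4 female) and 11.2 CPM in WT. Relative to matKO oocytes this was 8.11% in numbers 42 to 48 and 3.11% in numbers 37 to 41. For 169 of the 185 members the highest matKO embryo was among the 7. Without the 7, no member was called, where 0.125% of all genes were, the median log2 difference was -0.39 (all genes -0.06), and Gdf9 had 0.27 (edgeR adjusted p 0.59). The 7 had totals of 1.48 to 4.65 megacounts, against 4.19 to 10.97 megacounts in numbers 37 to 41. The summed level of 11 measured genes of genome activation was 2274 to 5344 CPM in the 7, 2037 to 3766 CPM in the other 5 and 1059 to 2543 CPM in WT, and that of the cumulus and granulosa markers was 204 to 290 CPM in the 7, 311 to 401 CPM in the other 5 and 292 to 2031 CPM in WT. The summed level of 8 macrophage markers reached 2658 CPM in matKO female 4, numbered below 42. The part of depth and of these marker levels in the excess was not tested. In males alone 7 of 176 members were called, all higher in matKO (median 0.95), where 1.52% of all genes were called higher (median 0.02). In females alone no member was called (median 0.29), where 0.00807% of all genes were called (median 0.06). The difference between the sexes was not tested, and 5 of the 6 matKO males but 2 of the 6 matKO females are among the 7.

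The split was large in the 5 members with the most left in matKO 2C embryos, predicted genes aside. These 5 were picked by a matKO mean that includes numbers 42 to 48. The choice itself therefore favours genes that are high in those embryos, and the values are a description. Zc3h6, a zinc finger gene, kept 35% of its oocyte mean in matKO, with 97.3 CPM in numbers 42 to 48, 13.7 CPM in numbers 37 to 41 and 24.01 CPM in WT. Pls1, an actin-bundling plastin, had 31.4 CPM in numbers 42 to 48, 6.08 CPM in numbers 37 to 41 and 8.69 CPM in WT, and Orc5, a subunit of the origin recognition complex, had 169.5 CPM in numbers 42 to 48, 24.4 CPM in numbers 37 to 41 and 46.8 CPM in WT. In each, embryos numbered 37 to 41 averaged below WT. Bpgm, bisphosphoglycerate mutase, had 373 CPM in numbers 42 to 48, 102 CPM in numbers 37 to 41 and 114 CPM in WT. Zfp616 had 27.6 CPM in numbers 42 to 48, 2.08 CPM in numbers 37 to 41 and 9.31 CPM in WT. Over all matKO embryos Bpgm came closest to a call after Gdf9, with 61.8 to 565 CPM around 252 in matKO and 51.03 to 165 CPM around 120.1 in WT (log2 difference 1.25, SE 0.31, edgeR adjusted p 0.051). Tbc1d14, a regulator of autophagy, had 34.4 to 452 CPM around 258 in matKO and 37.8 to 188 CPM around 73.6 in WT at 2C.

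The difference in clearance, matKO 2C minus matKO oocytes against the same in WT, was called for no member, where 0.0286% of 17486 genes were called. At an unadjusted p under 0.05, 19 members differed, all with a smaller fall in matKO, and 976 of all genes did, 448 with a positive and 528 with a negative difference, which is 5.58%. The ranking chose members by a large fall in WT, which by itself leans them toward a smaller fall in matKO. In the matKO-based list, 11 genes had a smaller and 8 a larger fall in matKO at that threshold. Its median log2 difference was 0.20. DESeq2 called 0 members and 0.124% of all genes. The members' median was 0.63 on the log2 scale (all genes -0.02), a positive value meaning a smaller fall in matKO, and it was -0.29 without the 7 embryos, where the median of all genes was -0.36. The median half-width of a member's unadjusted 95% interval was 1.68. It is a measure of precision and not a limit of detection, and the lack of a call does not show equal clearance. Zc3h6 had 2.10 (SE 0.78, edgeR adjusted p 0.80) and Gdf9 0.94 (SE 0.39, edgeR adjusted p 0.84).

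**Figure D3:**
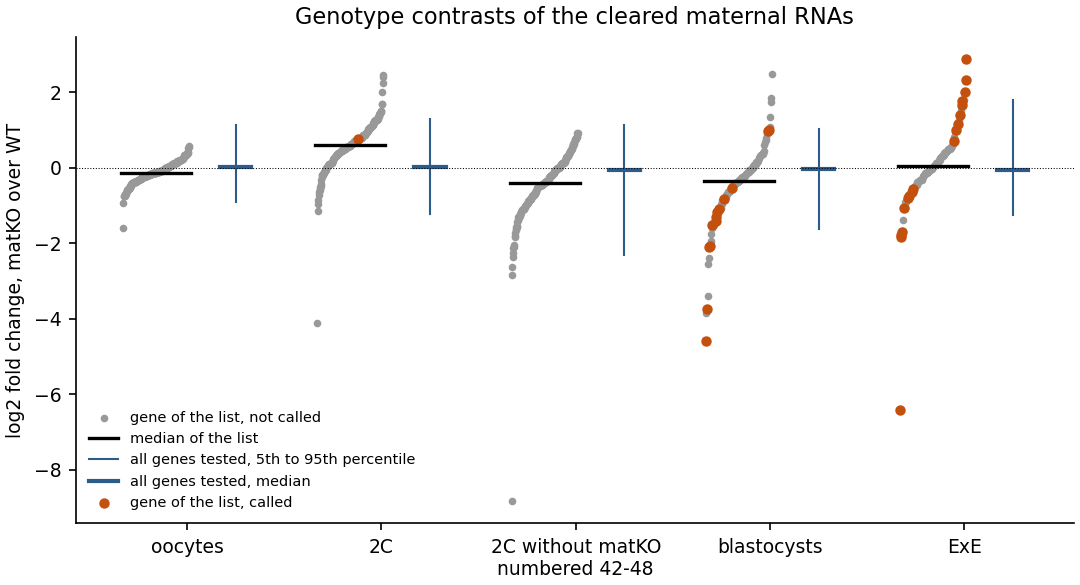
Log2 fold change of matKO over WT for each tested member (points, sorted within a column), with the member median (black bar), and the median and 5th to 95th percentile over all genes tested (blue). Orange points passed an adjusted p of 0.05. The member median is -0.13 in oocytes, 0.60 at 2C, -0.39 at 2C without the 7 matKO embryos numbered 42 to 48, -0.34 in blastocysts and 0.03 in ExE.

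Later in development most members stayed low, while some had a higher level than at 2C. In blastocysts, 97 members averaged under 1 CPM in matKO and 89 in WT, while 45 in matKO and 52 in WT had at least 10 CPM. In ExE, 79 members were under 1 CPM in matKO and 83 in WT, and 53 in matKO and 62 in WT had at least 10 CPM. In blastocysts 36 members in matKO and 50 in WT had a higher mean than at 2C of the same genotype. The highest in WT blastocysts was Sfr1, a recombination factor, with 179.8 ± 73.7 CPM in matKO and 217 ± 55.1 CPM in WT (SD, n = 14 each). Igbp1, a regulator of the phosphatase PP2A, followed with 109 ± 57.5 CPM in matKO and 150.4 ± 51.3 CPM in WT, after 5.63 ± 5.12 CPM at 2C in matKO and 5.75 ± 5.58 CPM in WT. Lamtor5, a Ragulator subunit, had 117 ± 27.5 CPM in matKO and 137 ± 30.9 CPM in WT. In ExE the highest in WT was Cyb5a, cytochrome b5, with 209 ± 63.7 CPM in matKO and 327 ± 88.99 CPM in WT (SD, n = 8 and 10). Lamb1 had 439 ± 633 CPM in matKO ExE and 274 ± 276 CPM in WT ExE, and Tspan3 had 103 ± 47.4 CPM in matKO and 202 ± 75.2 CPM in WT.

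In blastocysts, which the ranking did not use, 114 members passed the filter on low counts. Of these, 11 were lower in matKO and 2 higher, which is 9.65% and 1.75% of those tested, where 3.48% of 13825 genes were called lower and 2.65% higher. The identifier prefix was a term of this fit, since it was unevenly spread, with 6 D405T and 8 D707T libraries in matKO and 10 D405T and 4 D707T in WT. What the prefixes mean the labels do not give. Within D405T 4 of 109 tested members were lower and 2 higher, where 3.0% of all genes were called lower and 2.66% higher. Within D707T 3 of 102 tested members were lower and 1 higher, where 0.507% of all genes were called lower and 0.607% higher. The median log2 difference was -0.34, against -0.03 over all genes. Members that passed the filter through the group in which they were higher had to differ, so these shares describe the tested members only. Akr1b3, aldose reductase, had 3.51 to 53.01 CPM around a median of 13.1 in matKO and 20.1 to 233 CPM around 94.8 in WT. It was lower in matKO (log2 difference -2.08, SE 0.26, edgeR adjusted p 2.0e-05), with 14 of 14 matKO blastocysts below the WT mean and 10 below every WT blastocyst. Ooep had 2.71 to 84.02 CPM around a median of 20 in matKO and 43.2 to 159 CPM around 96.2 in WT, and 12 matKO blastocysts lay below every WT one (log2 difference -1.52, SE 0.23, edgeR adjusted p 8.8e-05). Within D405T and D707T, Akr1b3 had log2 differences of -2.07 and -2.10 and Ooep of -1.26 and -1.95, and both passed in each.

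The other falls in blastocysts held less well within the prefixes. AU015836 had 0 to 1.31 CPM in matKO and 0.404 to 18.4 CPM in WT (log2 difference -4.59, SE 0.97, edgeR adjusted p 0.0038). Slc30a3, a zinc transporter, had 0 to 2.23 CPM in matKO and 0 to 17.4 CPM in WT (log2 difference -3.73, SE 0.77, edgeR adjusted p 0.0030). Both were low in matKO and WT alike compared with their oocyte levels. Xrcc5, the Ku80 subunit of end joining, had 0.907 to 32.2 CPM in matKO and 13.6 to 70.9 CPM in WT (log2 difference -1.18, SE 0.27, edgeR adjusted p 0.0077). Lamb1 had 13.1 to 83.6 CPM in matKO and 46.9 to 526 CPM in WT (log2 difference -1.31, SE 0.32, edgeR adjusted p 0.011). All 14 matKO blastocysts lay below the WT mean for each of these 4 genes, and the genotypes overlapped. Below every WT blastocyst lay 11 matKO blastocysts for AU015836, 9 for Xrcc5, 6 for Lamb1 and 0 for Slc30a3. Within D405T and D707T, AU015836 had -5.05 and -3.62 and passed in D405T alone. Slc30a3 (-3.11 and -4.73), Xrcc5 (-0.71 and -1.80) and Lamb1 (-1.28 and -1.17) passed in neither. Setd4, a lysine methyltransferase, was higher, with 8.18 to 24.7 CPM in matKO and 2.77 to 18.3 CPM in WT (log2 difference 0.99, SE 0.26, edgeR adjusted p 0.020). Its difference was 0.39 and not called in D405T and 1.99 and called in D707T. The other member called higher was the predicted gene Gm1070 (log2 difference 0.98, SE 0.28, edgeR adjusted p 0.030). In 9 of 14 matKO blastocysts it lay above every WT one. Gm1070 was also called higher in ExE (1.77, SE 0.50, edgeR adjusted p 0.013), where genotype and prefix cannot be told apart. Beside these, the summed level of 8 blastocyst lineage markers was 1466 to 4894 CPM in matKO (median 2817) and 2237 to 6380 CPM in WT (median 4665), and its part in the members' values was not tested.

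In ExE, 106 members passed the filter, and 9 were higher and 9 lower in matKO. Each is 8.49% of those tested, where 14.9% of 13111 genes were called higher and 11.4% lower. WT ExE libraries all had the prefix D1042C and matKO ones D707T, so genotype and prefix cannot be told apart here. Scaling by library totals in place of TMM, edgeR's scaling that trims extreme genes, gave a median over all genes of -0.41 instead of -0.07, and 5 members higher and 22 lower, where 8.82% of all genes were called higher and 26% lower. Akr1b3 was higher in matKO ExE, with 22.7 to 107 CPM around a median of 38.9 in matKO and 7.81 to 58.6 CPM around 24.2 in WT (log2 difference 1.39, SE 0.35, edgeR adjusted p 0.0060), and 7 of 8 matKO pieces lay above the WT mean. Ooep was low in both, with 1.5 to 7.82 CPM in matKO and 0 to 4.31 CPM in WT (log2 difference 2.00, SE 0.66, edgeR adjusted p 0.029). Tle6 had 5.99 to 16.8 CPM in matKO and 2.46 to 10.3 CPM in WT (log2 difference 0.99, SE 0.27, edgeR adjusted p 0.0096), a call that ends with library totals (0.62, edgeR adjusted p 0.084). The genotypes overlapped for all 3. The call of Ooep ended without matKO female 4 or matKO male 1. Sfrp4, Fam46c (a poly(A) polymerase, Tent5c in RefSeq) and Fetub (fetuin B) were higher by 2.32, 1.67 and 2.88 on the log2 scale at means of 2.88, 2.62 and 3.11 CPM in matKO and 0.691, 1.05 and 0.461 CPM in WT. The call of Sfrp4 ended without matKO female 4 or matKO male 1. Leaving out single pieces ended the call of Fam46c in 7 of 18 cases and of Fetub in 6, and Fam46c also lost it with library totals (1.35, edgeR adjusted p 0.079) and with no filter on low counts.

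Among the falls in ExE, Gdpd1, Aass, an enzyme of lysine breakdown, and the predicted gene 9130409I23Rik did not overlap between genotypes. The share of all genes without overlap was not counted. 9130409I23Rik had the smallest p of the members in ExE (log2 difference -6.42, SE 0.67, edgeR adjusted p 1.0e-06). Gdpd1 had 0.715 to 2.56 CPM in matKO and 4.26 to 13.5 CPM in WT (log2 difference -1.78, SE 0.34, edgeR adjusted p 0.00071). Aass had 2.56 to 18.9 CPM in matKO and 19.3 to 54.5 CPM in WT (log2 difference -1.69, SE 0.33, edgeR adjusted p 0.00081). AU015836, lower in blastocysts too, had 1.74 to 13.2 CPM in matKO and 6.66 to 61.3 CPM in WT (log2 difference -1.83, SE 0.42, edgeR adjusted p 0.0030). It overlapped between genotypes in part, with 7 of 8 matKO pieces below every WT piece. Elovl5, a fatty acid elongase, had 10.7 to 46.1 CPM in matKO and 12.3 to 121 CPM in WT (log2 difference -1.07, SE 0.33, edgeR adjusted p 0.021). Fam162a had 70.2 to 189 CPM in matKO and 124 to 377 CPM in WT (log2 difference -0.74, SE 0.25, edgeR adjusted p 0.030). Tbc1d14 had 27.3 to 66.5 CPM in matKO and 55.3 to 130.2 CPM in WT (log2 difference -0.57, SE 0.19, edgeR adjusted p 0.030). These last 3 overlapped between genotypes. Leaving out single pieces ended the call of Fam162a in 5 of 18 cases and of Tbc1d14 in 5, and Tbc1d14 also lost it with no filter on low counts. Markers of other tissues reached higher sums in matKO: 14 decidual and stromal genes summed to 46.7 to 821 CPM in matKO and 37.97 to 223 CPM in WT, and 6 erythroid genes to 1.70 to 354 CPM in matKO and 0.103 to 38.8 CPM in WT. The 8 oocyte markers, which include the members Gdf9, Bmp15, Ooep, Padi6 and Nobox, summed to 3.16 to 26.1 CPM in matKO and 0.432 to 4.91 CPM in WT. Their part in the ExE values was not tested.

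**Figure D4:**
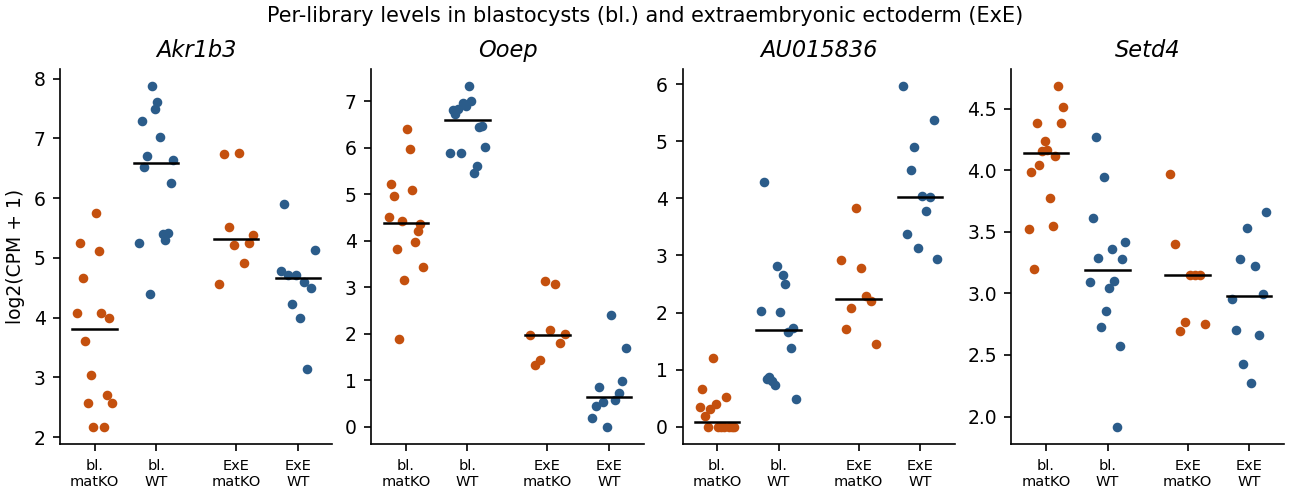
Levels of Akr1b3, Ooep, AU015836 and Setd4 per library, as log2(CPM + 1), in blastocysts (bl.) and ExE, matKO in orange left of WT in blue; bars are medians. Akr1b3 and Ooep are lower in matKO blastocysts and higher in matKO ExE, AU015836 is lower in matKO at both stages, and Setd4 is higher in matKO blastocysts.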

How the data were processed

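Per the labels, polyadenylated RNA of single oocytes, embryos or tissue pieces was sequenced. The authors deposited whole-number counts per gene in a table for each stage. The submitters' processing notes name Trim Galore, STAR, SAMtools, featureCounts and mm10. Versions, strand setting and multi-mapping rule are not stated in the sources used. Column names were matched to sample titles, which gave 76 libraries, and 8 columns that match no sample were not used. CPM is a count divided by the library's total. Tests used edgeR 4.0.16 (R 4.3.3) with TMM scaling, filterByExpr (minimum count 10), robust quasi-likelihood fits (legacy=TRUE) and Benjamini-Hochberg adjustment over all genes tested, at 0.05. The clearance difference is an interaction of stage and genotype across the oocyte and 2C tables. Alternatives were DESeq2 1.42.0, library totals, legacy=FALSE, no filter, single libraries left out, sexes apart, prefixes apart and a replicate block.

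The members, gene lists and tests were chosen with earlier results of these data known. Named genes follow a rule: the highest ranked, those beside the threshold, up to 6 called with the smallest p per direction and comparison, up to 4 per gene list by WT oocyte level, the least cleared in matKO, and the highest or lowest in level. In the choice by p, gene list, clearance and level, genes with Gm or Rik symbols were passed over. Genes named outside the rule (clusters, Tbc1d14 at 2C, Gm1070, 9130409I23Rik and 1110012L19Rik) were chosen after their values were seen. Replicates are single libraries, so p-values measure the spread between these libraries. Promoter windows come from RefSeq tables (GRCm38.p6) and 3′ UTRs from GENCODE M21 on GRCm38. The scripts were tested on simulated counts.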

Additional observations from a re-analysis of the deposited data

Results flagged for a closer look

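For 9 of the 27 members called in blastocysts or in ExE, the log2 fold change of matKO over WT differed between the 2 tissues in a joint edgeR fit, chosen after seeing the data. The difference, ExE minus blastocysts, was 3.60 for Ooep (adjusted p 2.4e-05), 3.37 for Akr1b3 (adjusted p 8.6e-07), 3.69 for Slc30a3, 2.79 for Cpeb1, 2.77 for AU015836, 2.52 for Lamb1, 1.71 for Fam46c, 1.14 for Xrcc5 and 1.04 for 1110012L19Rik. Over all members tested in this fit, 18 of 147 were called (12.2%), all positive. Of all 17564 genes tested, 1605 were called positive and 909 negative. The 27 were picked for a call in blastocysts or ExE, which by itself favours a difference between the 2 tissues. Akr1b3 was called in opposite directions in the 2 tissues. So was Ooep, but its call in ExE ended without matKO female 4 or matKO male 1. In ExE, genotype and identifier prefix cannot be told apart, which holds for these differences as well.

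Single libraries stood far from the others of their group in 5 cases, over 12 groups of 4 to 10 libraries and 3 measures. Chance flags about 1 in 20 groups. WT female ExE replicate 3 gave members 0.468% of its counts, against 0.305% to 0.361% in the 5 others. MatKO female ExE replicate 1 had a median member level of 2.92 CPM, against 1.26 to 1.72 CPM in 4 others. MatKO female blastocyst replicate 4 had a median of 0 CPM, against 0.465 to 0.799 CPM in 6 others. In WT male 2C replicate 1, 78 members had no count, against 2 to 21 in 5 others, and in WT female blastocyst replicate 4, 62 had none, against 72 to 75 in 5 others.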

How the results depend on the processing

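The fall of the members between matKO oocytes and matKO 2C embryos was called for all tested under every alternative run, and no named gene reversed. The call of members at 2C depends on the setting: DESeq2 called 17, library totals 0, legacy=FALSE 6, males alone 7, females alone 0, the replicate block 0, and the fit without numbers 42 to 48 gave 0, while leaving out single libraries gave 0 to 4 (4 without matKO female 1, matKO female 4 or matKO male 4). Gdf9 at 2C held without matKO females 1 to 5, matKO male 4, WT females 2 and 4 or WT male 1, and was lost without any other single embryo. In blastocysts legacy=FALSE called 24, D405T alone 6, D707T alone 4 and the replicate block 5. In ExE no filter gave 30 (24 higher and 6 lower), the replicate block 11, and single libraries left out 12 to 20. Shares over all genes are given above for DESeq2, sexes apart, prefixes apart, library totals in ExE and the fit without numbers 42 to 48. For the other settings they are not given. Those counts show how calls depend on the setting and are not a trait particular to the members. In ExE, Fam46c lost its call without matKO females 1 and 2, matKO male 3, WT females 4 and 6 or WT males 1 and 3, Fetub without matKO female 1, matKO male 1 or WT females 1, 4, 5 and 6, Fam162a without matKO female 1, matKO males 1 and 2, WT female 6 or WT male 2, and Tbc1d14 without matKO females 2 and 5, WT females 1 and 5 or WT male 1, each left out singly. The replicate block ended the ExE calls of Sfrp4, Fam46c, Fetub, Elovl5, Fam162a and Tbc1d14 and the blastocyst calls of Lamb1, Setd4, Slc30a3 and Xrcc5. In oocytes and in the clearance difference, 0 members were called under every setting run. Over named genes, 1547 values kept direction and side of the threshold and 69 fell short of it; the cause was not tested. Same-numbered libraries deviated together (r over 0.1) in 3 of 11 pairs at 2C, 2 of 3 in oocytes, 9 of 13 in blastocysts and 1 of 8 in ExE. In blastocysts r ran from -0.112 to 0.435. The labels do not say whether the numbers pair samples, and what same-numbered blastocysts share was not tested. Ranking with 10 CPM added kept 158 members, with TMM scaling 178, and without single libraries 171 to 183. Without single libraries 123 to 131 members were shared with the matKO-based list. Depth limits members near 0 CPM after 2C.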
